A study of Mus musculus with 4 samples.

Results

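The keratin-associated protein genes of mouse back skin are described here across 4 expression arrays. Members were all genes whose name on the array starts with Krtap. These were 40 genes of 22 subfamilies, read by 45 of 44170 targets, out of 26487 features (24203 gene names and 2284 unnamed targets). Keratin-associated proteins fill the space between the keratin filaments of the hair shaft and are linked to them and to each other by disulfide bonds. They are made late in the hair follicle, after the hair keratins, and are grouped by composition into high sulfur, ultra-high sulfur and high glycine-tyrosine proteins. Their genes are short, lie in clusters of near copies and are used as markers of a follicle that is building hair.

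Skin was taken from the backs of 8-week-old BALB/c males after creams had been applied 2 times daily for 5 days. The ATRA group received a cream with 0.1% all-trans retinoic acid, a vitamin A acid. The ATRA+NIC group received that cream together with a nicotinamide cream, the NIC group the nicotinamide cream, and the Control group an oil/water cream. The sources used here do not give the nicotinamide concentration, or tell if animals were pooled. Each group was measured on 1 array, so treatment and any difference between the skins cannot be told apart, and a difference between 2 arrays has no replicate check. Precision is limited by having only 4 arrays.

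Values are RMA intensities as deposited. The median over all targets lay between 102.3 and 104.7, and log2 values of array pairs correlated with r from 0.940 to 0.956 across features, which are not independent replicates. A value is called near background where it was under 2 times the array's random control probes, a limit of 68.0 to 72.6. Markers of interfollicular epidermis bore out the label of skin, with 0 of 9 near background on any array and summed intensities of 227519 on ATRA and 241739 on ATRA+NIC, against 210349 on NIC and 234178 on Control.

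Promoters of 34 of the 40 genes were found in the RefSeq table by gene ID (build GRCm38.p6, 250 bases before to 50 after the start). Shown for each of the 5 chromosomes that hold Krtap genes is the promoter of the member with the highest mean log2 intensity among those found, from 150 bases before the start to 50 after, with the TATAAA element in capitals. They are given because most of the promoters found hold this element. Whether it bears on the array values was not tested.
Krtap8-1, chr16:89487903-89488102, minus strand: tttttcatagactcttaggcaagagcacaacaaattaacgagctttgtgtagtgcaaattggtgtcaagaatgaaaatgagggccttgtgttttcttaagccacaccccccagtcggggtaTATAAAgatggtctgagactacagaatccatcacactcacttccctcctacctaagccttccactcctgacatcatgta
Krtap9-3, chr11:99598057-99598256, minus strand: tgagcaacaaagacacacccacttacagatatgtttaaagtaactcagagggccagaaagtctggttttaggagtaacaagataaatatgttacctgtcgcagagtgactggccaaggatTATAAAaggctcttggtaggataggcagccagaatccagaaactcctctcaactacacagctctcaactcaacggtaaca
Krtap5-1, chr7:142297085-142297284, minus strand: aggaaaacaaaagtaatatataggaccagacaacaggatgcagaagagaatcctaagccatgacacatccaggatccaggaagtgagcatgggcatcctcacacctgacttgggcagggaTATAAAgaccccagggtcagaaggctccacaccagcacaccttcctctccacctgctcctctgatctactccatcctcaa
Krtap10-4, chr10:77827021-77827220, minus strand: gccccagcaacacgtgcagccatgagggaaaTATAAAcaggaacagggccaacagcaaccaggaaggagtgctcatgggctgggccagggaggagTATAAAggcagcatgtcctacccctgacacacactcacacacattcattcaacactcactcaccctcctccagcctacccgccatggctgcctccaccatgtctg
Krtap28-13, chr1:83060780-83060979, plus strand: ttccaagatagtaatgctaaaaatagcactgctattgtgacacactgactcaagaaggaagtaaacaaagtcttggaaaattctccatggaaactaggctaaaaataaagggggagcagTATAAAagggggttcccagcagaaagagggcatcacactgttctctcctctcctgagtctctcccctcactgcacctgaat

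TATAAA, the core of the TATA box that positions RNA polymerase II, lay on the gene's strand with its first base 20 to 40 bases before the start in 21 of 34 Krtap promoters (61.8%). The same held for 655 of 32851 promoters in the table (1.99%). On either strand and anywhere in the window it was found in 28 of 34 (82.4%), against 13.6% of all. In Krtap10-4 both copies lie farther from the listed start. The core bound by LEF/TCF factors, CTTTG followed by AA, AT, TA or TT, was found on either strand in 13 of 34 (38.2%), against 16.9% of all. Matches of both motifs can overlap by at most 2 bases. Promoters of near copies share sequence, so the 34 are not independent, and a match is not a shown binding site.

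Across the family, 36 of 40 genes had the same order of arrays, with NIC highest, then Control, then ATRA+NIC, and ATRA lowest. This order was found for 4.36% of all features. Both ATRA arrays lay below both other arrays for 38 of 40 genes, against 16.8% of all features. The median member read 108 on ATRA and 412 on ATRA+NIC, against 12618 on NIC and 4196 on Control. The exceptions to the order were Krtap12-1, Krtap26-1, Krtap13 and Krtap6-3. Krtap13 read 26.8 on ATRA and 35.7 on ATRA+NIC, against 27.7 on NIC and 25.6 on Control. Krtap6-3 read 27.1 on ATRA and 19 on ATRA+NIC, against 29.6 on NIC and 18 on Control, and these 2 genes were near background on every array. On ATRA 15 members were near background and on ATRA+NIC 6, against 2 on NIC and 2 on Control. In bulk skin, fewer hair-forming cells and less RNA per cell cannot be told apart.

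**Figure D1:**
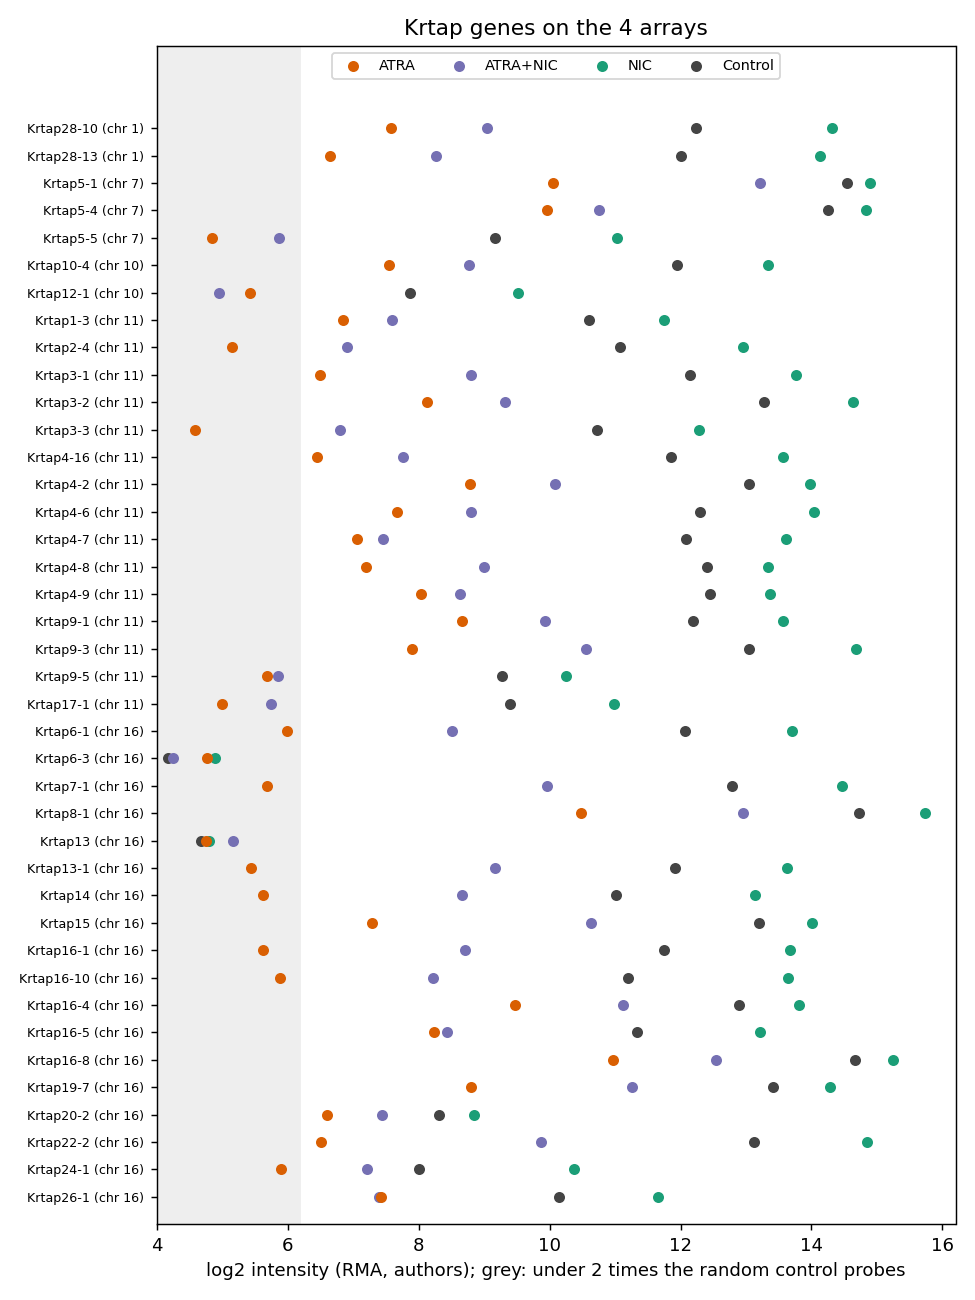
Log2 intensity (x axis) of each of the 40 Krtap genes (rows, by chromosome) on the ATRA, ATRA+NIC, NIC and Control arrays, 1 point per array, with the near-background range in grey. In 38 rows the ATRA and ATRA+NIC points lie left of both others, and in 36 the NIC point is the farthest right with ATRA the farthest left.

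The ATRA cream was compared with the oil/water cream, and the ATRA cream with nicotinamide was compared with nicotinamide alone, which gives 2 differences that share no array. Of the 40 members 38 were at least 2-fold lower in ATRA minus Control, where 5.69% of all features were, and 38 were at least 2-fold lower in ATRA+NIC minus NIC, where 7.08% were. In both differences 38 passed, against 1.31% of all features. The family medians were -4.55 and -4.50 on the log2 scale, beside medians of 0.04 and 0.01 over all features. With near-background values set to the limit the medians were -4.55 and -4.47 and the counts 38 and 38. Among features with a mean log2 at or above the median of all features, as 38 members had, 3.89% and 5.84% were at least 2-fold lower.

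An additive limma fit over all 4 arrays and all 26487 features tested the ATRA effect with nicotinamide as the other term. With Benjamini-Hochberg adjustment over all features 34 of 40 members fell and 0 rose, with limma adjusted p from 0.00386 to 0.0356, while 0.408% of all features fell and 0.0113% rose. Krtap genes made up 31.5% of the features that fell. The 6 members that did not pass were Krtap24-1 (limma adjusted p = 0.07), Krtap12-1 (0.0722), Krtap5-1 (0.254), Krtap20-2 (0.318), Krtap13 (0.96) and Krtap6-3 (0.996). The fit has 1 residual degree of freedom, the interaction, and the p-values are valid only if both treatments add on the log2 scale. Whether they add was not tested. The interaction was at or above 1 for 10 members and at or below -1 for 6, where 11.9% and 11.2% of all features were. The SE values below are moderated over all features by eBayes and are not a spread between replicates. With the random control probes subtracted as background before log2, 0 members and 0 of all features passed, while 38 members were at least 2-fold lower in each difference. With an intensity trend in the fit 37 members fell, where 0.766% of all features did.

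**Figure D2:**
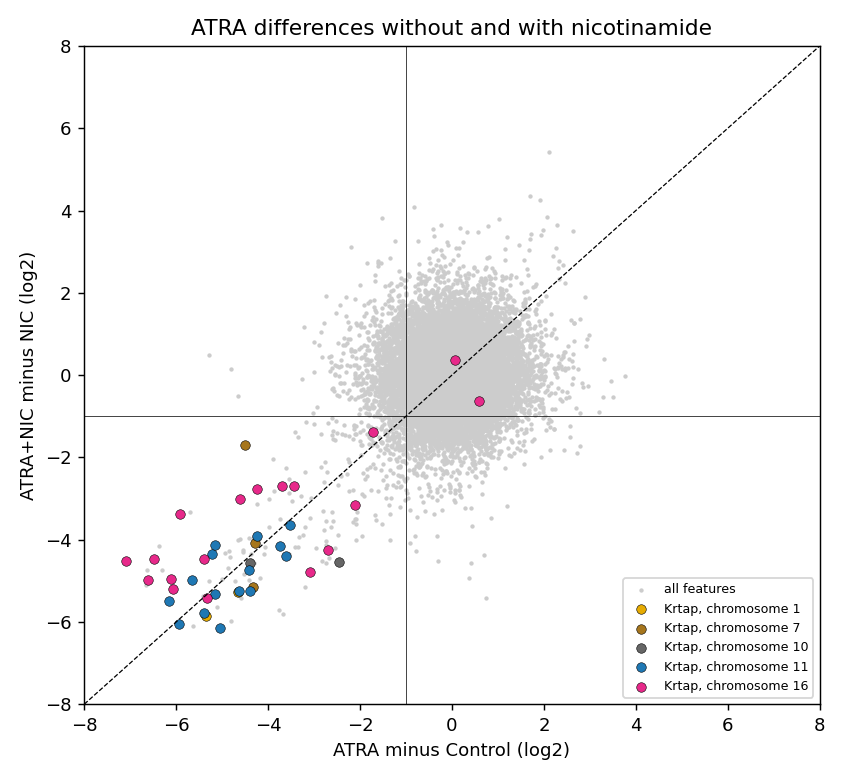
ATRA minus Control (x axis, log2) against ATRA+NIC minus NIC (y axis, log2) for all 26487 features in grey and the Krtap genes coloured by chromosome. Lines mark a 2-fold decrease and the dashed line equal differences. All but 2 Krtap genes lie in the lower left corner.

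Among the high sulfur genes, known from the cortex of the hair and for some members from the cuticle, 12 of 13 were at least 2-fold lower both without and with nicotinamide. In the limma fit 10 fell. Their medians were -5.15 for ATRA minus Control and -4.48 for ATRA+NIC minus NIC. Krtap3-2 (chromosome 11, 99417745 to 99418139, the target's position in mouse build MM9, as for the other genes) read 280.4 on ATRA and 639 on ATRA+NIC, against 25378 on NIC and 9945 on Control. It fell by 5.23 with ATRA (SE 0.34, limma adjusted p = 0.00386). Krtap3-3 read 23.9 on ATRA and 111 on ATRA+NIC, against 4982 on NIC and 1703 on Control, at least 24.5-fold lower on ATRA than on Control since the ATRA value was near background. Its neighbour Krtap3-1 differed by -5.66 for ATRA minus Control and -4.97 for ATRA+NIC minus NIC. Both ATRA readings of each of these 3 genes were far below the other 2.

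Krtap2-4 (chromosome 11, 99475330 to 99481718) read 35.4 on ATRA and 119 on ATRA+NIC, against 7897 on NIC and 2168 on Control. It was at least 31.1-fold lower in ATRA minus Control and 66.2-fold lower in ATRA+NIC minus NIC. Its fitted ATRA effect, which takes the near-background reading as it stands, was -5.99 (SE 0.34, limma adjusted p = 0.00386). Krtap1-3, in the same cluster, read 115 on ATRA and 192 on ATRA+NIC, against 3411 on NIC and 1547 on Control. Its differences were -3.75 for ATRA minus Control and -4.15 for ATRA+NIC minus NIC. On chromosome 10, whose Krtap genes are known from the hair cuticle in humans, Krtap10-4 read 186 on ATRA and 436 on ATRA+NIC, against 10359.6 on NIC and 3923 on Control. Krtap12-1 read 42.8 on ATRA and 31.0 on ATRA+NIC, against 727 on NIC and 233 on Control. Krtap12-1 was near background on both ATRA arrays, at least 3.35-fold lower on ATRA than on Control and at least 10.0-fold lower on ATRA+NIC than on NIC.

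The remaining high sulfur genes lie on chromosome 16. Krtap13-1 (88729106 to 88729856) read 43.3 on ATRA and 574 on ATRA+NIC, against 12720.2 on NIC and 3874 on Control. It was at least 55.6-fold lower on ATRA than on Control and 22.1-fold lower on ATRA+NIC than on NIC. Krtap14 read 49.3 on ATRA and 404 on ATRA+NIC, against 8982 on NIC and 2071 on Control. Krtap15 read 156 on ATRA and 1590.1 on ATRA+NIC, against 16467 on NIC and 9434 on Control. All 3 read lowest on ATRA and next lowest on ATRA+NIC. Krtap24-1 was near background on ATRA, at least 3.67-fold lower there than on Control and 8.93-fold lower on ATRA+NIC than on NIC. Krtap26-1 differed by -2.70 for ATRA minus Control and -4.25 for ATRA+NIC minus NIC.

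The ultra-high sulfur genes, rich in cysteine and known from the cuticle and cortex of the hair, included 13 of 13 that were at least 2-fold lower without and with nicotinamide, and 12 fell in the limma fit. Their medians were -4.41 for ATRA minus Control and -4.40 for ATRA+NIC minus NIC. In subfamily 4, a chromosome 11 cluster, the 6 genes differed by -4.25 to -5.40 in ATRA minus Control and by -3.90 to -6.15 in ATRA+NIC minus NIC. Krtap4-2 (99495834 to 99496342) read 442 on ATRA and 1082 on ATRA+NIC, against 16133 on NIC and 8436 on Control. Krtap4-7 read 132 on ATRA and 177 on ATRA+NIC, against 12516 on NIC and 4371 on Control. Krtap4-7 was 33-fold lower for ATRA minus Control and 70.9-fold lower for ATRA+NIC minus NIC.

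In subfamily 9, Krtap9-3 (chromosome 11, 99458959 to 99459372) read 238 on ATRA and 1495 on ATRA+NIC, against 26322 on NIC and 8447 on Control. Krtap9-5, near background on both ATRA arrays, read 51.1 on ATRA and 57.6 on ATRA+NIC, against 1221 on NIC and 619 on Control. It was at least 8.89-fold lower on ATRA than on Control and at least 16.8-fold lower on ATRA+NIC than on NIC. Krtap9-1, with signal on every array, read 404 on ATRA and 973 on ATRA+NIC, against 12126 on NIC and 4671 on Control. Krtap17-1, the one gene of its subfamily, was near background on the same arrays, at 31.8 on ATRA and 53.6 on ATRA+NIC, against 2023 on NIC and 671 on Control. It was at least 9.64-fold lower on ATRA than on Control and at least 27.9-fold lower on ATRA+NIC than on NIC.

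The 3 genes of subfamily 5 lie on chromosome 7 and encode cysteine-rich cuticle proteins. Krtap5-1 (149482283 to 149482977) read 1058 on ATRA and 9464 on ATRA+NIC, against 30546 on NIC and 23886 on Control. It differed by -4.50 for ATRA minus Control and -1.69 for ATRA+NIC minus NIC. Krtap5-4 read 998 on ATRA and 1717 on ATRA+NIC, against 29087 on NIC and 19511 on Control. It differed by -4.29 for ATRA minus Control and -4.08 for ATRA+NIC minus NIC and fell by 4.19 with ATRA (SE 0.34, limma adjusted p = 0.00435). Cross-hybridisation between near copies was not tested. Krtap5-5 was near background on both ATRA arrays, at least 8.26-fold lower on ATRA than on Control and at least 28.8-fold lower on ATRA+NIC than on NIC.

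The high glycine-tyrosine genes, whose small proteins are found in the cortex, had 11 of 12 members at least 2-fold lower without and with nicotinamide, and 10 fell in the limma fit. Their medians were -4.43 for ATRA minus Control and -3.77 for ATRA+NIC minus NIC. Krtap7-1 (chromosome 16, 89507946 to 89508568) read 51.4 on ATRA and 994 on ATRA+NIC, against 22708 on NIC and 7063 on Control. It was at least 101-fold lower in ATRA minus Control and 22.9-fold lower in ATRA+NIC minus NIC, and fell by 5.81 in the fit, which takes the ATRA reading as it stands (SE 0.60, limma adjusted p = 0.0128). Krtap22-2 read 90.2 on ATRA and 934 on ATRA+NIC, against 29622 on NIC and 8879 on Control. Krtap6-1 read 63.4 on ATRA and 364 on ATRA+NIC, against 13307 on NIC and 4267 on Control. These 3 genes had ATRA readings close to or below the limit and clear signal on ATRA+NIC.

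Some other genes of this class were above the limit on every array. Krtap8-1 (89487622 to 89488197) read 1432 on ATRA and 7899 on ATRA+NIC, against 54307 on NIC and 27091 on Control. It was 18.9-fold lower on ATRA than on Control and 6.88-fold lower on ATRA+NIC than on NIC. The gene named Krtap16-8 on the array, now Krtap6-5, read 1996 on ATRA and 5955 on ATRA+NIC, against 38678 on NIC and 25929 on Control. Krtap19-7 read 446 on ATRA and 2460.1 on ATRA+NIC, against 19927 on NIC and 10889 on Control. Each was at or above 446 on both ATRA arrays and still far below NIC and Control. Krtap20-2 had the smallest ATRA difference among the 38 members above the limit on some array, and read 97.2 on ATRA and 174 on ATRA+NIC, against 457 on NIC and 317 on Control. It was 3.26-fold lower on ATRA than on Control and 2.63-fold lower on ATRA+NIC than on NIC.

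The other members of subfamily 16 also carry other symbols now. Krtap16-1 (now Krtap19-2) read 49.2 on ATRA and 419.7 on ATRA+NIC, against 12989 on NIC and 3415 on Control. It was at least 49.1-fold lower on ATRA than on Control and 31.0-fold lower on ATRA+NIC than on NIC. Krtap16-4 (now Krtap19-4) differed by -3.43 for ATRA minus Control and -2.70 for ATRA+NIC minus NIC, and Krtap16-5 (now Krtap19-3) by -3.09 for ATRA minus Control and -4.78 for ATRA+NIC minus NIC. Krtap16-10 (now Krtap16-3) was near background on ATRA, at least 33.7-fold lower there than on Control and 43.2-fold lower on ATRA+NIC than on NIC. The 2 genes of subfamily 28, which were not assigned to a class, both lie on chromosome 1. Krtap28-10 differed by -4.66 for ATRA minus Control and -5.27 for ATRA+NIC minus NIC, and Krtap28-13 by -5.36 for ATRA minus Control and -5.85 for ATRA+NIC minus NIC. The classes did not separate by direction, and whether they differ in size was not tested.

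The NIC cream was compared with the oil/water cream, and ATRA+NIC with ATRA, for the nicotinamide response without and with ATRA. These use the same 4 arrays as the ATRA differences, so the values are not independent of them. All 40 members, 2 of them near background, were higher in NIC minus Control, where 51.1% of all features were above 0, and 27 were at least 2-fold higher, where 5.83% were. In ATRA+NIC minus ATRA 37 members were above 0, against 48.8% of all features, and 28 were at least 2-fold higher, against 6.15%. Both differences passed for 21 members and for 0.785% of all features. Among features with a mean log2 at or above the median, 3.63% were at least 2-fold higher in NIC minus Control and 2.54% in ATRA+NIC minus ATRA. The family medians were 1.53 and 1.39, beside medians of 0.01 and -0.01 over all features.

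For nicotinamide the limma fit called 0 of 40 members at the same threshold (smallest limma adjusted p = 0.682), and likewise 0% of all features passed in either direction. At an unadjusted p under 0.05, 31 of 40 members passed, and over all features 809 were higher and 763 lower. With an intensity trend in the same fit 20 members rose, where 0.166% of all features did. Krtap16-10 read 12752 on NIC and 2342 on Control, the highest NIC minus Control value of the family at 5.44-fold. Krtap24-1 read 1323 on NIC and 255 on Control, 5.18-fold higher, and Krtap14 was 4.34-fold higher.

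Krtap5-1 was 1.28-fold, Krtap5-4 1.49-fold, Krtap16-8 1.49-fold, Krtap19-7 1.83-fold and Krtap8-1 2.00-fold higher on NIC than on Control. These are the 5 members with the highest mean log2 intensity. The Krtap8-1 reading of 54307 was the highest of any target on the NIC array, and the highest readings of other arrays lay between 51026 and 51872. Whether signal was saturated there was not tested.

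The nicotinamide differences under ATRA were spread more widely. Their standard deviation over the 40 members was 1.16 in ATRA+NIC minus ATRA and 0.57 in NIC minus Control. Over the 25 members above the limit on all 4 arrays it was 0.95 and 0.50. Krtap3-1, Krtap4-8 and Krtap4-9 are among the 25 by averaged targets, although each has a target near background on ATRA. Krtap7-1 was at least 14.3-fold higher on ATRA+NIC than on ATRA, Krtap22-2 10.4-fold, Krtap15 10.2-fold and Krtap5-1 8.94-fold. Krtap13-1 was at least 8.25-fold higher, Krtap9-3 of chromosome 11 6.27-fold and Krtap16-1 at least 6.03-fold. Krtap26-1 read 169 on ATRA+NIC and 173 on ATRA, and Krtap16-5 read 345 on ATRA+NIC and 302 on ATRA. Krtap4-7 was 1.33-fold and Krtap9-5 1.13-fold higher on ATRA+NIC than on ATRA, and both readings of Krtap9-5 were near background.

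By chromosome, the 18 genes of chromosome 16 had a median of 2.40 in ATRA+NIC minus ATRA and the 15 genes of chromosome 11 had 1.27. In NIC minus Control the medians were 1.58 for chromosome 16 and 1.52 for chromosome 11. With near-background values set to the limit the medians under ATRA were 2.24 for chromosome 16, with 13 of 18 genes at least 2-fold higher, and 1.13 for chromosome 11, with 8 of 15. Among genes above the limit on all 4 arrays they were 1.65 for chromosome 16 (n = 9) and 1.27 for chromosome 11 (n = 11). For these genes the medians of NIC minus Control were 0.92 on chromosome 16 and 1.38 on chromosome 11. Whether the chromosomes differ was not tested.

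**Figure D3:**
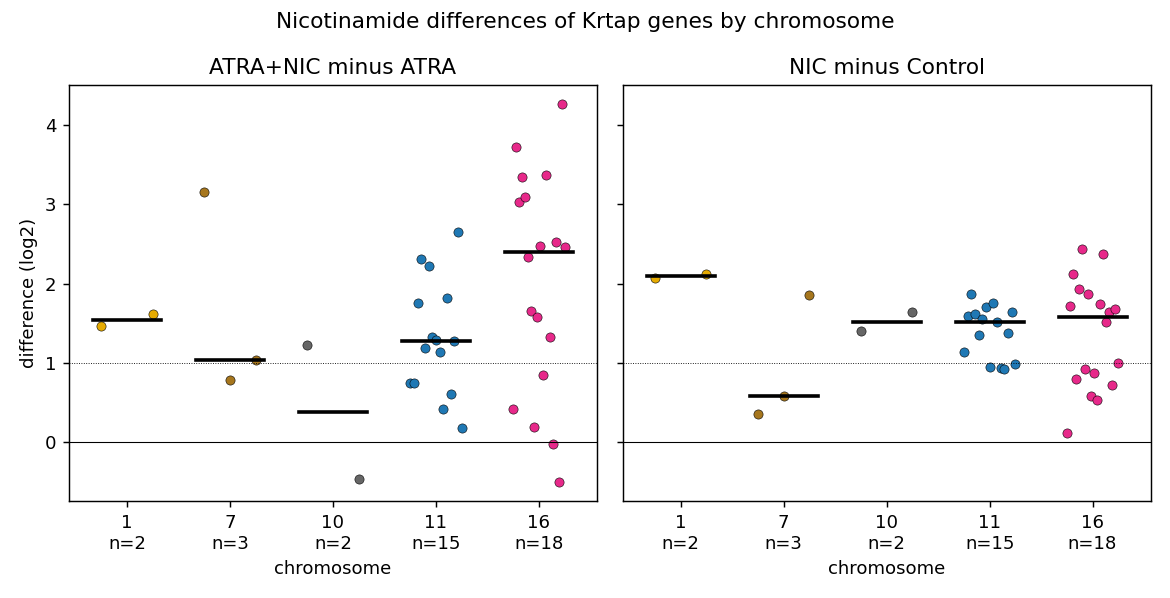
Log2 differences (y axis) of the Krtap genes by chromosome (x axis), ATRA+NIC minus ATRA on the left and NIC minus Control on the right, 1 point per gene with the median as a bar and a dotted line at 2-fold. On chromosome 16 the left panel runs between -0.51 and 4.27 with a median of 2.40, and the right panel between 0.11 and 2.44.

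The interaction, (ATRA+NIC minus NIC) minus (ATRA minus Control), had a median of 0.05 over the family, with 20 members above 0 and 20 below, beside 48.7% of all features above 0. It was at or above 1 for 10 members, where 11.9% of all features were, and at or below -1 for 6, where 11.2% were. The highest values were those of Krtap5-1 (2.81), Krtap7-1 (2.59), Krtap15 (2.54), Krtap13-1 (2.01) and Krtap22-2 (1.63). The lowest were Krtap12-1 (-2.11), Krtap16-5 (-1.68), Krtap26-1 (-1.55), Krtap6-3 (-1.23) and Krtap4-7 (-1.10). Of these 10, Krtap7-1 and Krtap13-1 were near background on ATRA, Krtap12-1 on both ATRA arrays and Krtap6-3 on all 4. The family median was -0.02 with near-background values set to the limit. On chromosome 16, 13 of 18 were above 0, and on chromosome 11, 5 of 15. With 1 array per group the interaction has no test.

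With both creams against neither, 36 of 40 members were at least 2-fold lower in ATRA+NIC minus Control, where 6.73% of all features were, with a median of -3.00. The 2 members with signal that were less than 2-fold lower were Krtap24-1 at -0.78 and Krtap20-2 at -0.87. Krtap8-1 was 3.43-fold, Krtap5-1 2.52-fold and Krtap4-7 24.7-fold lower. In these 38 genes the ATRA+NIC reading was below the Control reading.

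For 5 genes the array has 2 targets, and both were at least 2-fold lower in both ATRA differences in every case. They disagreed in size for Krtap4-9, where one target read 62.9 on ATRA and 76.3 on ATRA+NIC, against 5805 on NIC and 1549.6 on Control, and the other 1097 on ATRA and 2065 on ATRA+NIC, against 19384 on NIC and 20230.1 on Control. NIC minus Control was 1.91 for the first and -0.06 for the second. The Krtap3-1 targets also differed in size, at -4.49 and -5.44 in ATRA+NIC minus NIC and at 1.37 and 1.86 in NIC minus Control. For Krtap16-8 ATRA+NIC minus ATRA was 1.84 and 1.32. Both Krtap2-4 targets and one target each of Krtap3-1, Krtap4-8 and Krtap4-9 were near background on ATRA, so their pairs of values are not set side by side for that difference.

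A further 22 features that the array describes as keratin-associated, or whose current symbol starts with Krtap, carry other names on the array and were not counted as members. Their medians were -3.54 in ATRA minus Control, where 17 were at least 2-fold lower, and -3.31 in ATRA+NIC minus NIC, where 15 were. Over all features 5.69% and 7.08% were at least 2-fold lower in these differences. In ATRA+NIC minus NIC 2 of the 22 were at least 2-fold higher. In the limma fit 13 fell, where 0.408% of all features did. In NIC minus Control 9 were at least 2-fold higher, against 5.83% of all features, and 8 were below 0. In ATRA+NIC minus ATRA 12 were at least 2-fold higher, against 6.15%.

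The hair keratins, which form the filaments that keratin-associated proteins surround, and the inner root sheath were read beside the family. Over all features 1.31% were at least 2-fold lower both without and with nicotinamide, and 0.408% fell in the limma fit. Of 12 measured hair shaft keratins 12 were at least 2-fold lower without and with nicotinamide and 10 fell in the limma fit. Their medians were -3.44 for ATRA minus Control and -4.19 for ATRA+NIC minus NIC. Of 7 inner root sheath keratins and trichohyalin 7 were, and 3 fell, with medians of -2.26 for ATRA minus Control and -3.51 for ATRA+NIC minus NIC. Of 8 shaft crosslinking and other shaft genes, 4 were at least 2-fold lower without and with nicotinamide and 2 fell, with medians of -0.69 and -1.46 for the same differences. S100a3, a calcium-binding protein of the hair cuticle, and Padi3, which converts arginines of hair proteins to citrulline, were the 2 that fell. Tgm3, a transglutaminase that crosslinks hair proteins, read 6089 on ATRA and 7904 on ATRA+NIC, against 5455 on NIC and 4664 on Control, and Selenbp1 differed by -0.01 and -0.12. In ATRA+NIC minus ATRA the Krtap family had 28 of 40 genes at least 2-fold higher and a median of 1.39, against 5 of 12 and 0.51 for hair shaft keratins and 1 of 7 and 0.60 for sheath genes. Over all features 6.15% were at least 2-fold higher there. In that difference 10 of the 12 hair shaft keratins were above 0 and 2 below, from -0.35 for Krt35 to 3.15 for Krt34. Krt34 read 71.2 on ATRA, close to the limit of 69.6 there. Krt81 was at 2.23, Krt85 at 0.53, Krt33b at 0.39 and Krt40 at -0.15. Whether the lists differ was not tested.

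Regulators of the hair matrix and hair cycle had medians nearer 0. Over the 20 measured, the median was -0.13 in ATRA minus Control, with 4 at least 2-fold lower, and -1.08 in ATRA+NIC minus NIC, with 10, and 0 fell or rose in the limma fit, where with an intensity trend 3 fell. Among all features, 5.69% were at least 2-fold lower without and 7.08% with nicotinamide, and 0.766% fell in the fit with an intensity trend. These shares also apply to the melanocyte markers below. In ATRA minus Control 13 of the 20 regulators were below 0 and 7 above. The 4 that were at least 2-fold lower were Vdr, Foxn1, Dlx3 and Lef1, and those farthest above 0 were Edar at 0.87, near background on all 4 arrays, Ovol1 at 0.76 and Tgfb2 at 0.68, chosen after their values were seen. Foxn1, a transcription factor needed for hair shaft differentiation, read 539.6 on ATRA and 631 on ATRA+NIC, against 2394 on NIC and 1307 on Control. Dlx3, a regulator of the hair matrix, read 1224 on ATRA and 872 on ATRA+NIC, against 5105 on NIC and 3448 on Control. Lef1, the partner of beta-catenin in the matrix, read 80.3 on ATRA and 74.6 on ATRA+NIC, against 247 on NIC and 174 on Control. Both of its ATRA readings were close to the limits there, 69.6 on ATRA and 72.6 on ATRA+NIC. Of 7 melanocyte markers, 2 were at least 2-fold lower for ATRA minus Control and 6 for ATRA+NIC minus NIC, 0 fell in the limma fit and 4 with an intensity trend, and their summed intensity was 2634 on ATRA and 1952 on ATRA+NIC, against 12447 on NIC and 5018 on Control. Their part in the Krtap result was not tested.

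**Figure D4:**
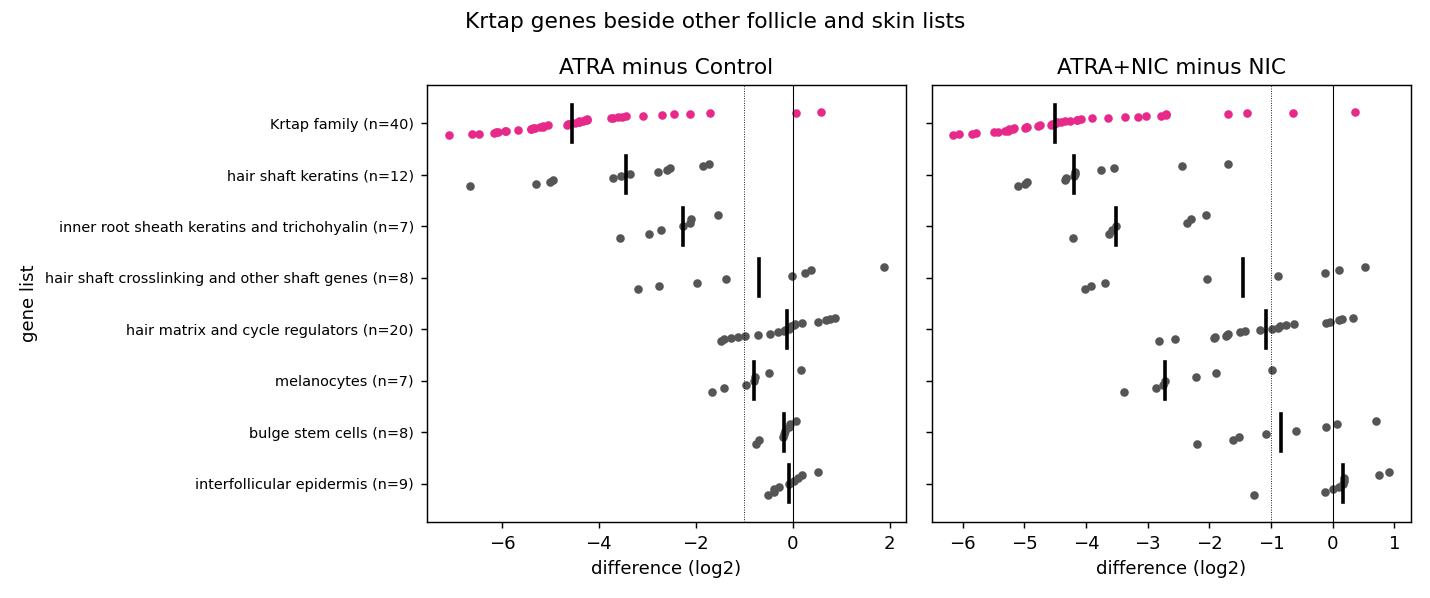
Log2 differences (x axis) of the Krtap genes and of 7 other gene lists (rows), ATRA minus Control on the left and ATRA+NIC minus NIC on the right, 1 point per gene, median as a bar, dotted line at a 2-fold decrease. The Krtap medians are -4.55 and -4.50, and those of interfollicular epidermis -0.07 and 0.17.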

How the data were processed

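RNA of 4 mouse skin samples was copied into cDNA, labelled with Cy3 and hybridised to NimbleGen arrays, per the labels' protocols. The authors deposited for each array a linear intensity per target, named RMA per the file names, and 44155 of 44170 targets have 3 probes. RMA in general adjusts background, scales arrays to each other and summarises probes, which can narrow differences between arrays. The sources used here name neither software nor settings. A deposited value table holds the same intensities for 24323 targets, with 50.0 as its lowest value. The 4 value columns of a workbook were not used. Intensities were put on the log2 scale, targets of a gene name were averaged, and no filter on dim features was set.

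Differences of 2 arrays were counted at 2-fold and have no test. limma 3.58.1 (R 4.3.3, lmFit and eBayes) fitted ATRA and NIC additively with 1 residual degree of freedom, adjusted by Benjamini-Hochberg over 26487 features at 0.05. The fit was first run on simulated arrays with additive ATRA effects and independent noise. Such arrays cannot show if the treatments add in the real data. A fold against a near-background value was computed against 2 times the random control probes (5000 probes summarised to 1 value per array). Current symbols were found by gene ID for 38 of 40 members. Genes named with values were the member of each subfamily with the highest mean log2 intensity, the 5 members with the highest such mean in the family, and the 5 lowest and 5 highest for ATRA, NIC and interaction. Others were named after their values were seen. Protein classes follow general knowledge of the subfamilies, in place of the planned protein composition, which was not computed. Members and lists were chosen with earlier results of these data known. Alternatives were array centring, quantile and cyclic loess scaling, the brightest target, subtraction of the random probes, the value table, a filter on mean log2, an intensity trend and a limit of 3 times the random probes. Scripts used Python 3.11.15, pandas 2.3.3 and NumPy 2.4.6.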

Additional observations from a re-analysis of the deposited data

Results flagged for a closer look

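Members whose difference pointed opposite ways in both backgrounds were singled out, and with 1 array per group these differences were not tested. Krtap6-3 was at 0.59 for ATRA minus Control against -0.64 for ATRA+NIC minus NIC, and at 0.72 in NIC minus Control and -0.51 in ATRA+NIC minus ATRA. It was near background on all 4 arrays. Krtap12-1 was at 1.64 in NIC minus Control and -0.47 in ATRA+NIC minus ATRA, with both ATRA readings near background. Krtap26-1 was at 1.52 in NIC minus Control and -0.03 in ATRA+NIC minus ATRA, with all 4 readings above the limit.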

How the results depend on the processing

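No paired analysis was possible because each group has 1 array, and no replicate could be left out. The medians of the 4 differences ATRA minus Control, ATRA+NIC minus NIC, NIC minus Control and ATRA+NIC minus ATRA kept their direction under all alternatives run. With centred medians, quantile scaling, cyclic loess or the brightest target they stayed at -4.62 to -4.52, -4.51 to -4.42, 1.51 to 1.57 and 1.32 to 1.43. With the random probes subtracted ATRA minus Control was -4.98, ATRA+NIC minus NIC -4.65 and ATRA+NIC minus ATRA 1.68, and in the value table, which holds 30 members, ATRA+NIC minus NIC was -4.37 and NIC minus Control 1.39. Of 40 members 34 fell with ATRA, and 29 (quantile scaling) to 38 (features at or above the median) did under the other alternatives except subtraction of the random probes, where 0 did. That fit called 0 of all features. With NIC 0 members rose except with an intensity trend, where 20 did. Krtap6-3, near background, had an ATRA effect of 0.06 in place of -0.02 with the random probes subtracted. Over all features 108 fell with ATRA, and 171 did at a mean log2 at or above the median, 203 with an intensity trend and 0 with random probes subtracted, while 3 rose in the first and 30, 63 and 0 in the others, and 28 in the value table.

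Further alternatives were chosen after seeing the data. With the 22 further keratin-associated features the first 3 medians were -4.36, -4.30 and 1.33. Over members above the limit on all arrays, 25 in number, ATRA+NIC minus NIC was -4.25 and NIC minus Control 1.35, and 25, 25, 15 and 18 of them were at least 2-fold apart. With near-background values set to the limit ATRA+NIC minus ATRA was 1.28. The interaction median of 0.05 was 0.23 with the brightest target, 0.24 with the random probes subtracted and -0.02 with near-background values set to the limit, so it has no settled sign. Signal over background limits the folds of 15 members on ATRA, 20 at a limit of 3 times the random probes.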
